A study of Mus musculus with 6 samples.

Results

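The comparison described here is the addition of FGF10 to dental epithelial stem cell organoids (DEOs) whose medium already contained the Notch inhibitor dibenzazepine (DBZ). It sets the library of the +NFD medium against the library of the +ND medium, 2 of the 6 samples of the series. Beyond a filter on level, members were not selected by their values. Every gene that reached 1 FPKM in +NFD or in +ND was used, which is 13293 of the 47360 gene symbols in the deposited table. A gene can thus pass through 1 library alone. FPKM is the number of sequenced fragments scaled to transcript length and to library size. A ratio is log2((FPKM + 1)/(FPKM + 1)), +NFD over +ND, and a ratio of 1 in either direction is called 2-fold. The added 1 shrinks the ratios of genes with low values.

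The DEOs were grown for 14 days from cells of the apical bud of the incisor of 9-week-old female wild-type C57BL/6J mice. All media contained Noggin (200 µg/ml), EGF (100 µg/ml), R-spondin1-conditioned medium (5%) and Wnt3a-conditioned medium (50%), by the sample labels. The paper's methods also list N-acetylcysteine and other supplements in all media, and this base without further factors is the +N medium. The +ND medium added DBZ at 10 µM by the labels, +NF added FGF10 at 100 µg/ml, and +NFD added both. For DBZ the paper's methods give 10 mmol/L in place of 10 µM. The +NF and +N libraries serve here as the same comparison without DBZ, and the media with Jagged1 were not analysed here. There is 1 library per medium, so no test between media was possible, no p-value is given, and a difference between media cannot be told apart from a difference between single cultures.

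FGF10 is a mesenchymal ligand that signals through the epithelial isoform of Fgfr2, and in the mouse incisor it helps to maintain the stem cells of the apical bud. Its receptor acts through the ERK cascade, which induces its own inhibitors such as the Sprouty genes and Dusp6. Notch receptors signal when γ-secretase releases their intracellular domain, and DBZ blocks this cleavage. In stratified epithelia Notch takes part in the step from basal to suprabasal cells. In the incisor, progeny of the apical bud become ameloblasts, which secrete the enamel matrix proteins amelogenin, ameloblastin and enamelin.

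FGF10 on the DBZ background went with a 2-fold or larger ratio upwards in 450 genes, or 3.39% of the 13293, and downwards in 414, or 3.11%. With ratios centred on their median the split was 345 higher and 506 lower. Of all tested genes 59.0% were higher in +NFD by any amount, and counts of higher list members are to be read against this share, which was 65.7% in +NF against +N. The median ratio over all genes was 0.09, the quartiles were -0.19 and 0.35, and 74.4% lay within 0.5 of 0 on the log2 scale. A 4-fold ratio was reached by 64 genes upwards and 66 downwards. Of the tested genes 91.1% were protein-coding, against 81.8% of the higher and 80.7% of the lower calls. RNAs with a longest transcript under 300 nt made up 0.850% of tested genes but 9.11% of the higher and 8.94% of the lower calls, and no such RNA is named among the leading genes here.

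Depth was not stated per library. The spacing of low FPKM values, read from 8354 genes that have 1 annotated transcript each, put the depth of +NFD at 1.32 times that of +ND. The higher library of a called gene held a median of 665 estimated fragments, and 51 of 857 called genes with a known length had fewer than 30. All 12 epithelial markers on the list used were above 0 in each library, with Krt5 at 4984 FPKM in +ND and 6177 in +NFD. DBZ was present on both sides of the comparison. The Notch target Nrarp had 2.80 FPKM in +ND and 2.60 in +NFD, against 18.2 in +N and 9.12 in +NF, and Hes1 was at 74.6 and 80.1 FPKM against 157 and 109. Both targets were thus lower in the pair of libraries with DBZ than in the pair without it, and their ratios for FGF10 on the DBZ background were -0.08 and 0.10. Of 13 Notch target genes listed 4 passed the filter, 3 of them higher and 1 lower in +NFD. None reached 2-fold, but the highest ratio of the list was 0.94.

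**Figure D1:**
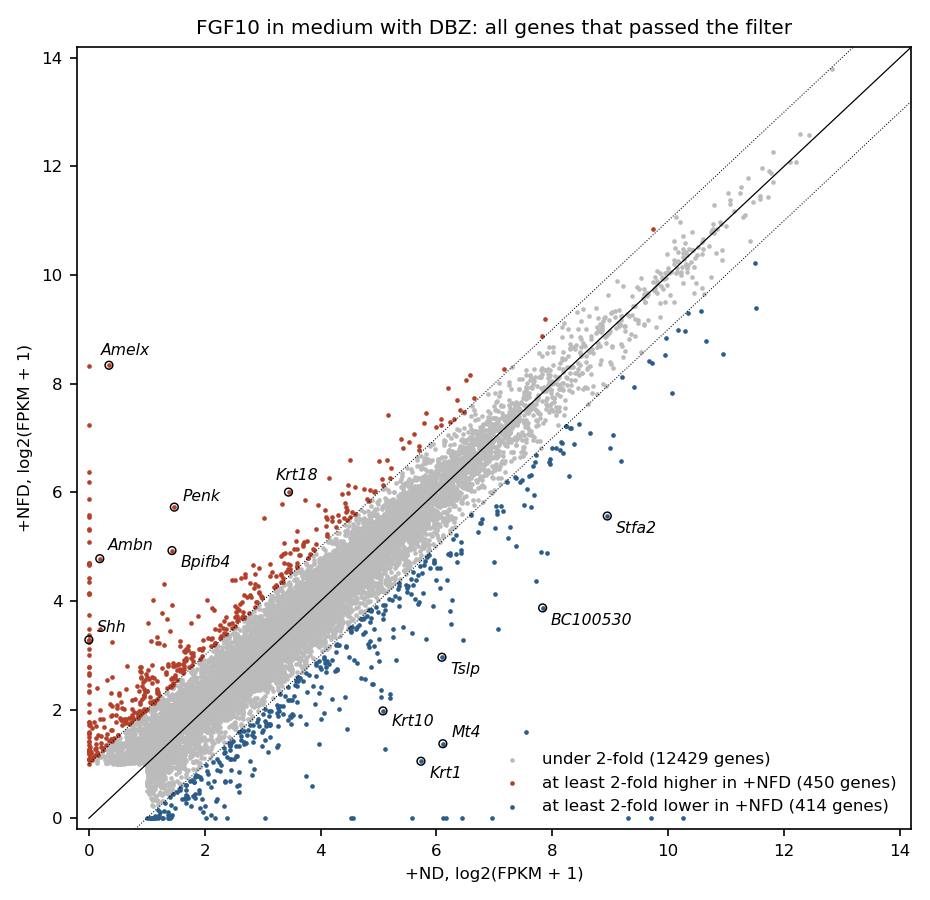
Level of each gene that passed the filter in +ND (horizontal axis) and +NFD (vertical axis), both as log2(FPKM + 1), 1 point per gene; the solid line marks equal levels and dotted lines a 2-fold ratio. Of 13293 genes, 450 lie above the upper dotted line and 414 below the lower one, with Amelx farthest above among the labelled genes and Mt4 and Krt1 farthest below.

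Feedback inhibitors of the FGF response were higher with FGF10, while the list of ERK response genes as a whole lay near the median of all genes. Spry1, a Sprouty inhibitor of receptor signalling, had 5.44 FPKM in +ND and 21.7 in +NFD, a ratio of 1.82, and 4.77 in +N and 17.9 in +NF. Spry2 was at 8.41 and 20.9 FPKM with DBZ, a ratio of 1.22. Dusp6, the phosphatase of ERK, was at 88.4 and 176 FPKM, which at 0.98 was just under the 2-fold limit, whereas without DBZ it was at 64.1 and 226 FPKM. The PEA3 factors Etv4 and Etv5 had ratios of 0.49 and 0.64 with DBZ and 1.45 and 1.62 without it. In +ND both were already at more than their +N level, 48.0 against 22.8 FPKM for Etv4 and 10.5 against 4.38 for Etv5. Over the list of 26 ERK feedback and immediate target genes, 24 passed the filter, 18 were higher, 2 reached 2-fold and none was 2-fold lower. The list's median was 0.12, close to 0.09 for all genes. On a list of 22 AP-1 and immediate early genes 19 passed, 8 were higher, 11 were lower, none reached 2-fold in either direction, and the median was -0.23. Egr1 had 42.5 FPKM in +ND and 24.4 in +NFD, and Ier3, which had the lowest ratio of that list, was at 489 and 248.

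Among receptors and ligands, Fgfr1 had 35.6 FPKM in +ND and 75.6 in +NFD, a ratio of 1.07, while Fgfr2 went from 82.8 to 50.8 FPKM and Fgfr3 from 27.4 to 15. Fgf9, an epithelial ligand of tooth development, was at 2.56 FPKM in +NFD, at 0.190 in +ND and listed at 0 in both media without DBZ. The transcript of Fgf10 itself stayed at 0.248 FPKM or lower in every library. Ligands of the EGF receptor family lay mostly on the other side. Of 16 EGF receptor family, ligand and feedback genes 13 passed, 11 were lower and 4 were at least 2-fold lower: Ereg (8.67 to 2.26 FPKM), Epgn (13.6 to 4.38), Nrg1 (32.8 to 12.6) and Areg (14.1 to 6.22). The receptors Egfr and Erbb2 were not among them, with ratios of 0.60 and 0.46.

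Enamel matrix genes held the 2 largest ratios among the leading genes. Amelx, which encodes amelogenin, the main protein of forming enamel, lies on the minus strand at chrX:169176114-169187200 of GRCm38. It had 0.272 FPKM in +ND and 323 in +NFD, and 0.269 in +N and 0.120 in +NF, with a ratio of 7.99 on the DBZ background. The 0.272 FPKM in +ND correspond to about 5.0 estimated fragments. Amelx lies inside Arhgap6, a gene of the opposite strand that had 0.124 FPKM in +ND and 0.118 in +NFD. Ambn, for ameloblastin (chr5:88455991-88468531, plus strand), was at 0.139 and 26.4 FPKM in +ND and +NFD, a ratio of 4.59, and at 0.340 and 0.117 in +N and +NF. Enam, for enamelin, was at 1.97 FPKM in +NFD and listed at 0 in the other 3 libraries, which is at least 79.6-fold above the 0.0248 FPKM that 3 fragments would give in +ND.

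Amelx, Ambn and Enam were thus near 0 in 3 libraries and detected clearly in +NFD. The protease gene Mmp20 was likewise listed at 0 in the other 3 libraries and was at 0.194 FPKM in +NFD, at least 4.68-fold above the value of 3 fragments in +ND. Klk4 was listed at 0 in +NFD, and Amtn, for amelotin, had 1.65 FPKM in +ND and 1.13 in +NFD. Odam, the most abundant gene of this list, had 2824 FPKM in +ND and 2602 in +NFD. Of the 8 genes on the enamel matrix list 5 passed the filter, 3 of them 2-fold higher and none 2-fold lower. Those 3, Amelx, Ambn and Enam, passed only through their +NFD value, so this count is no result about the list. The list median ranged from 0.14 to 4.59 across the settings used. Odam, Amtn, Ambn and Enam share a stretch of 621 kb on chromosome 5, so that neighbours in this cluster had ratios of -0.12, -0.32, 4.59 and 1.57.

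The sequence upstream of Amelx is shown because this gene had the largest ratio. The window covers the 250 bases before the RefSeq start of transcription (chrX:169187210-169187459, minus strand, GRCm38.p6), and capitals mark a TATA box (TATAAA) that begins 31 bases before that start.
Amelx: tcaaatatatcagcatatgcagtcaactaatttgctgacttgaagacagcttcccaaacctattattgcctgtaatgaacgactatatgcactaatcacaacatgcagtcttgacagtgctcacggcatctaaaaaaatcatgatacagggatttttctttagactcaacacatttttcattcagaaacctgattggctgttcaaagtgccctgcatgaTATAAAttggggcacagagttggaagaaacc

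Transcription factor genes of dental epithelium lay in both directions. Ascl5, which encodes the ameloblast lineage factor AmeloD, was listed at 0 in +N and +ND, at 0.233 FPKM in +NF and at 7.08 in +NFD, at least 29.5-fold above the value of 3 fragments in +ND. Of 34 listed transcription factor genes of dental epithelium 27 passed the filter, with 20 higher, 7 lower and a median of 0.42. The 6 that reached 2-fold upwards were Foxi3 (0 to 2.398 FPKM), Sp7 (1.97 to 8.54), Satb1 (1.39 to 5.80), Tbx1 (12.1 to 32.8), Runx2 (26.9 to 58.0) and Dlx6 (0.849 to 2.74). Sp7 and Runx2 are also factors of odontoblasts and bone cells and are on the odontoblast marker list, whose summed level was 154 FPKM in +ND and 318 in +NFD; its part in these values was not tested. Sox21 was 2-fold lower, at 2.74 and 0.425 FPKM, and the stem cell factor Sox2 was at 12.3 and 5.83 FPKM, a ratio of -0.96. Among further genes of hereditary enamel defects, 14 of the 16 that passed were higher, and Fam20a (36.1 to 85.8 FPKM) and Ltbp3 (32.4 to 74.9) reached 2-fold. Alpl, for the tissue-nonspecific alkaline phosphatase of mineralizing tissues, had 2.38 FPKM in +ND and 11.02 in +NFD. It was the only 2-fold member of the list of enamel maturation ion transport genes. On that list 9 passed, 7 higher and 2 lower, with a median of 0.21, and the list summed to 275 FPKM in +ND and 221 in +NFD.

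Hedgehog genes included one of the leading changes. Shh, the ligand made by inner enamel epithelium and ameloblast precursors (chr5:28456815-28467256, minus strand), was at 0.0160 FPKM in +N, listed at 0 in +ND, at 0.679 in +NF and at 8.74 in +NFD. This is at least 183-fold above the value of 3 fragments in +ND. Targets that report Hedgehog activity were higher too: Gli1 was at 0.865 and 5.86 FPKM and Ptch1 at 4.83 and 8.59 in +ND and +NFD. Disp1, whose product releases the ligand, was at 2.86 and 7.58 FPKM. Of 17 Hedgehog pathway genes 14 passed, 12 were higher and 4 reached 2-fold upwards, against 3.39% of all genes, with a median of 0.37. The list was similar without DBZ: 13 passed, 11 were higher and 2 reached 2-fold upwards, with a median of 0.40. Gas1, which encodes a coreceptor, had 30.9 FPKM in +ND and 16.9 in +NFD. Without DBZ, Gli1 was at 0.188 and 4.61 FPKM in +N and +NF, a ratio of 2.24 against 1.88 with DBZ, while Shh had a ratio of 0.72 against 3.28; neither difference between backgrounds was tested.

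Wnt target genes were higher in 18 of 20 members that passed, with a median of 0.51. Lgr5, a receptor for R-spondins and a stem cell marker, was listed at 0 in +ND and at 1.10 FPKM in +NFD, and at 0.0307 and 2.07 in +N and +NF. Sp5 was at 0.0312 and 1.33 FPKM and the secreted inhibitor Wif1 at 16.2 and 44.6 with DBZ. Axin2, the usual readout of the pathway, was at 13.2 and 13.9 FPKM, so the list was not uniform. Sfrp1, another secreted inhibitor, had 4.44 FPKM in +ND and 1.14 in +NFD. Among Bmp and Tgf-beta genes 22 of 29 were higher, with a median of 0.47, and Smad6 (4.84 to 12.9 FPKM), Id3 (226 to 469) and Grem1 (3.49 to 8.15) reached 2-fold. Smad6 and Id3 are targets of BMP signalling, and Grem1 encodes a BMP antagonist. Noggin, another antagonist, was in all 4 media.

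**Figure D2:**
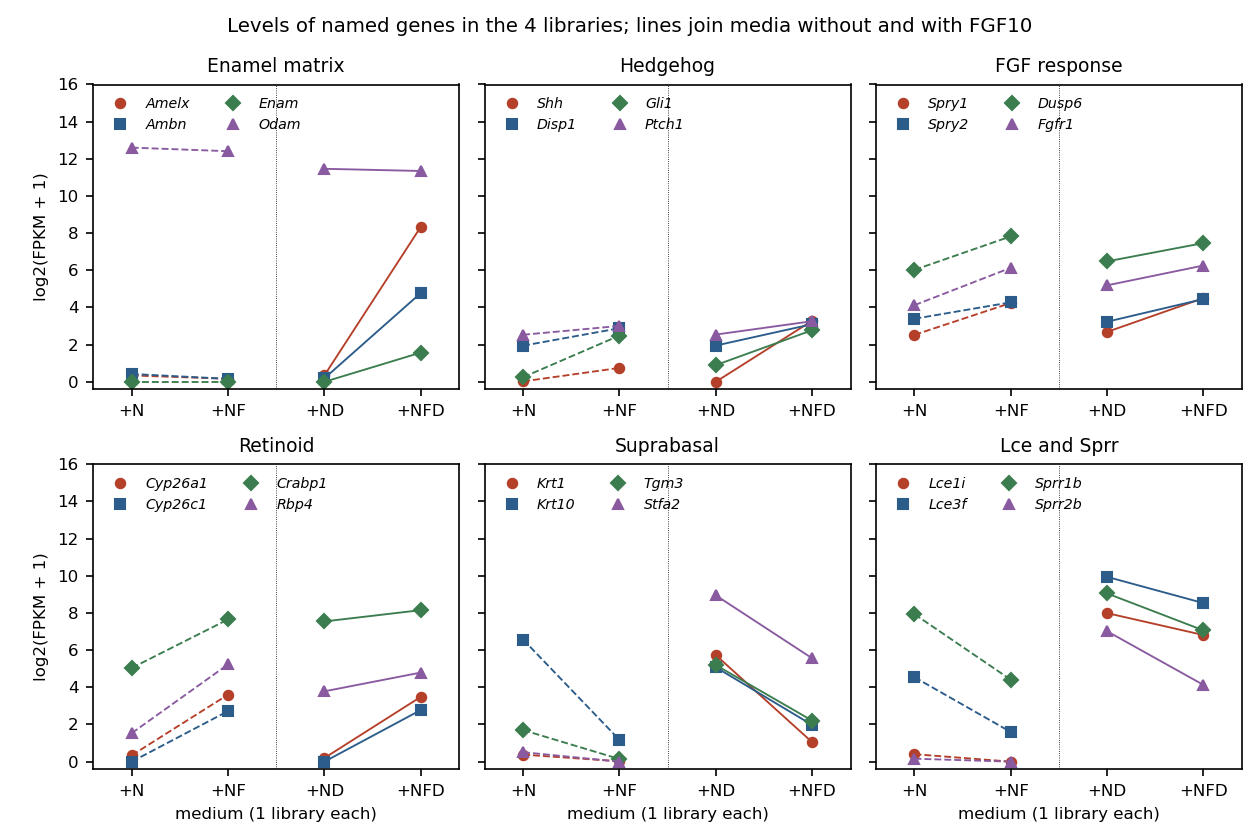
Levels of 24 named genes in the 4 libraries as log2(FPKM + 1), 1 point per library; dashed lines join +N to +NF and solid lines join +ND to +NFD. Amelx, Ambn and Enam are near 0 in 3 libraries and higher in +NFD. Spry1, Dusp6, Cyp26a1 and Cyp26c1 are higher with FGF10 in both pairs. Krt1, Krt10, Tgm3, Stfa2 and the Lce and Sprr genes shown are lower in +NFD than in +ND.

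Genes of retinoic acid breakdown stood among the 15 largest ratios upwards. Cyp26a1 and Cyp26c1, which encode enzymes that degrade retinoic acid, are neighbours on chromosome 19, 4.41 kb apart. Cyp26a1 had 0.145 FPKM in +ND and 10.2 in +NFD, and 0.267 in +N and 11.2 in +NF, and Cyp26c1 was listed at 0 in +N and +ND and at 5.601 and 5.854 FPKM in +NF and +NFD. Both genes were at similar levels in the 2 libraries with FGF10, whether or not DBZ was present. The third family member, Cyp26b1, had 13.3 FPKM in +ND and 9.03 in +NFD. On a list of 20 retinoid genes that was written after these values were seen, all 20 passed the filter, 12 higher and 8 lower. Cyp26a1, Cyp26c1 and Rbp4 (12.8 and 26.7 FPKM) were the 3 that were 2-fold higher. The 1 that was 2-fold lower was Dhrs9, with 7.06 and 2.79 FPKM. Without DBZ 16 passed, 6 higher and 10 lower, with a median of -0.67. Of those 16, 4 were 2-fold higher and 4 were 2-fold lower.

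The promoter of Cyp26a1 is shown because it holds a match to an exact spelling of a retinoic acid response element. The window is chr19:37697558-37697807 on the plus strand of GRCm38.p6, the 250 bases before the RefSeq start. Capitals mark a match, on the reverse strand, to a retinoic acid response element of the form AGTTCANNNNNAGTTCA, searched on both strands. This spelling was found in 2 of 9606 tested genes with a RefSeq promoter, or 0.0208%, and in 1 of the 269 genes that were 2-fold higher. Looser spellings were not searched, so these counts do not show how common such elements are in the other promoters. A match is a description of letters and not evidence of binding.
Cyp26a1: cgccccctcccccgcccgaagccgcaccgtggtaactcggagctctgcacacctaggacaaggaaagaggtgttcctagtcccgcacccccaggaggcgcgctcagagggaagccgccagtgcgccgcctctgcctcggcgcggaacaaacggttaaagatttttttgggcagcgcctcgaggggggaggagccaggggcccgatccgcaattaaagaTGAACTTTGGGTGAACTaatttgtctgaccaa

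Peptide hormone genes also led the higher genes. Penk, the precursor of enkephalins, had 1.78 FPKM in +ND and 52.0 in +NFD, and 1.01 in +N and 13.1 in +NF, with a ratio of 4.25 on the DBZ background. Gnrh1, the precursor of gonadotropin-releasing hormone, had 0.326 FPKM in +ND and 8.53 in +NFD, but 25.3 in +N and 8.35 in +NF, so that its ratio was 2.84 with DBZ and -1.49 without. On a list of 16 peptide genes written after these values were seen, 9 passed and 4 were 2-fold higher, the others being Calca (35.1 to 171 FPKM) and Gpha2 (0.324 to 5.09). Nppb was 2-fold lower, at 6.09 and 0.735 FPKM. The remaining leading genes upwards were of mixed kinds. Bpifb4, of the BPI fold family, was at 1.70 and 29.4 FPKM in +ND and +NFD and at 4.71 and 122 in +N and +NF. Igfbpl1 was listed at 0 in +ND and at 8.78 FPKM in +NFD, Tmem213 at 0 and 7.67, and Sorbs3, for the adhesion protein vinexin, at 1.46 and 18.9.

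On the lower side, the genes of the cornified layer formed the largest group. These genes encode the cross-linked shell that replaces the plasma membrane of dead surface keratinocytes. Of 64 listed cornified envelope genes 57 passed the filter, 54 were lower in +NFD, with 39 past 2-fold, and none was 2-fold higher, with a median of -1.26. The 39 are 68.4% of the members that passed, against 3.11% of all tested genes. The list kept a negative median under each of the 8 alternative settings. All 14 Lce1 genes were lower, with ratios from -1.54 to -0.90, and their summed level was 2293 FPKM in +ND and 941 in +NFD. Their summed level without DBZ was 17.9 FPKM in +N and 1.83 in +NF. The lowest library with DBZ thus still held far more Lce1 transcript than either library without it.

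Within the envelope list the ratios were not equal. In +ND and +NFD, Sprr2b was at 128 and 16.5 FPKM, Sprr1b at 529 and 133, Tgm3, for a cross-linking transglutaminase, at 35.7 and 3.62, and Krtdap at 1982 and 375. Hrnr, for hornerin, was at 4.85 and 0.510 FPKM and Flg, for filaggrin, at 58.1 and 23.3. Lor, for loricrin, the main envelope protein, was at 219.6 and 164 FPKM, a ratio of -0.42, and Tgm1 was at 169 and 127 FPKM. Sprr2h was at 522 and 639 FPKM, the highest ratio of the list at 0.29. Lce, Sprr2 and stefin genes are close copies of each other, and fragments may have been divided among them.

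Suprabasal keratins lay on the same side. Krt1, the type II keratin of suprabasal epidermis (chr15:101845428-101850786, minus strand), had 52.2 FPKM in +ND and 1.07 in +NFD, and 0.3004 in +N and 0.0123 in +NF, with a ratio of -4.68 on the DBZ background. Its partner Krt10 was at 32.8 and 2.93 FPKM with DBZ, a ratio of -3.10, and at 94.1 and 1.25 without it. In +ND and +NFD, Krt13 was at 129 and 39.7 FPKM and Krt80 at 72.3 and 28.3, whereas Krt4 was at 9.98 and 8.68. All 7 suprabasal keratins that passed were lower and 5 reached 2-fold. Krt16 (2909 to 1193 FPKM) and Krt6b (1525 to 648) of the stress keratins were also 2-fold lower, while the basal keratins Krt5 and Krt14 had ratios of 0.31 and 0.14. Krt6b shares sequence with Krt6a, which was at 2731 and 1584 FPKM.

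The stefin genes, which encode cysteine protease inhibitors of the cornified layer, had the lowest median of the lists, -2.05. Stfa2 had 494 FPKM in +ND and 46.3 in +NFD, and 0.422 in +N and 0 in +NF. With DBZ, Stfa3 was at 211 and 19.6 FPKM and BC100530 at 227 and 13.6. Without it, Stfa3 was at 4.27 and 2.46 FPKM and BC100530 at 4.70 and 0. These values were high in +ND, lower in +NFD and low in both libraries without DBZ. Of 10 stefin and cystatin genes that passed 7 were at least 2-fold lower. Cstb and Cst3, which are expressed broadly, were at 456 and 495 FPKM and at 134 and 218 FPKM. BC117090 (12.4 to 0.719 FPKM) and 2010005H15Rik (31.9 to 3.67) of the same gene cluster were among the 15 lowest ratios. So were the metallothionein genes Mt4 (68.2 to 1.59 FPKM) and Mt3 (13.5 to 0.516), the serpin gene Serpinb12 (86.9 to 8.70), Gm94 (240.2 to 28.4) and Fam213a (223 to 29.0).

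The lower calls were clustered along the chromosomes. In windows of 1000 kb, 6 of the 1992 windows with tested genes held at least 5 genes that were 2-fold lower, and together they held 69 of the 414 such genes, or 16.7%, but 0.918% of all tested genes. A single window held 5 genes that were 2-fold higher. From Lor to Tchhl1 (chr3:92080271-93471980), the stretch of the epidermal differentiation complex spanned by the listed envelope genes, 38 of 52 tested genes were 2-fold lower, none was 2-fold higher and the median ratio was -1.27. In the stefin cluster (chr16:36119946-36455392) all 8 tested genes were 2-fold lower. In the kallikrein cluster (chr7:43690418-43851181), which encodes proteases of desquamation, 8 of 12 were. Genes of a cluster are related copies and share function, so they are not independent observations.

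**Figure D3:**
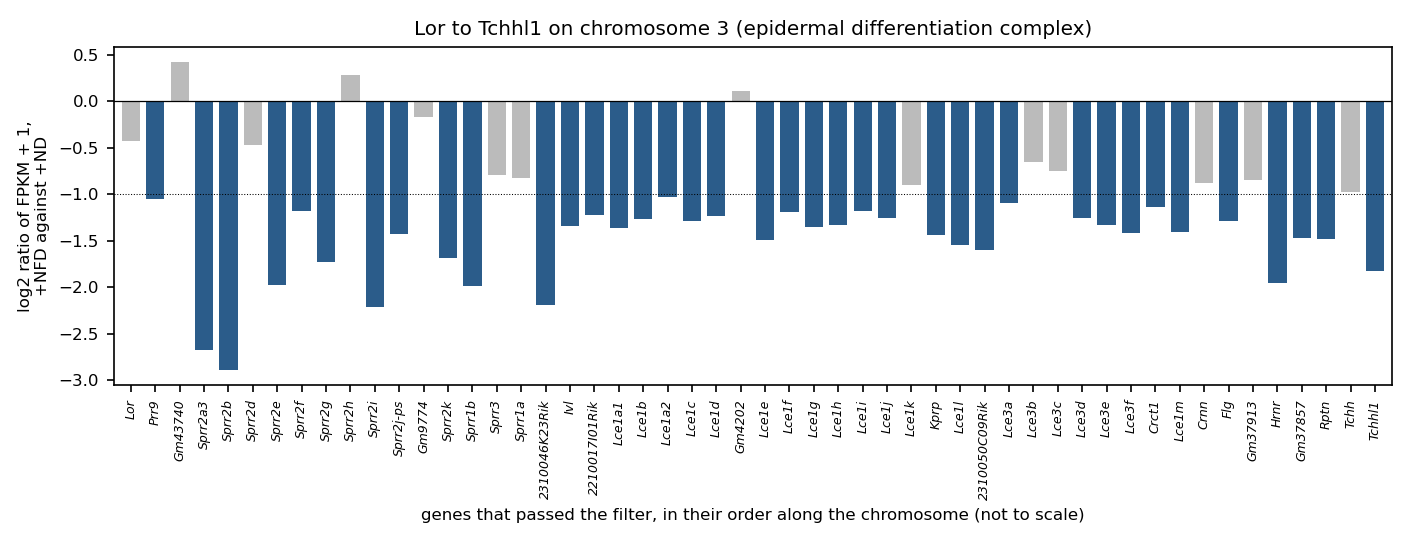
Log2 ratio of FPKM + 1 in +NFD against +ND for the 52 tested genes from Lor to Tchhl1, in chromosome order but not to scale; bars in blue reach the dotted 2-fold line. The 38 blue bars lie between Prr9 and Tchhl1 and include most Sprr, Lce1 and Lce3 genes, and the 14 other bars include Lor, Sprr2h and Crnn.

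The upstream windows of a pair of Sprr genes are shown because the lower genes differed from all genes in the letters of their promoters. In the 250 bases before the start, the AP-1 motif TGANTCA (a palindrome, so read alike on both strands) was found in 5.93% of 9606 tested genes with a RefSeq promoter, in 7.06% of 269 genes that were 2-fold higher and in 18.9% of 244 that were 2-fold lower. The share was 27.8% in 54 lower genes of the Lce, Sprr, stefin, Klk, Serpinb, keratin, Il1f, Gsta, Defb and S100a families, and 16.3% in the 190 others. The TATA box TATAAA, read on the strand of the gene, was found in 5.02%, 5.95% and 18.0% of the same sets. The ETS motif CCGGAAG on either strand was less frequent in both called sets, with 15.7% of all, 4.09% of higher and 4.92% of lower genes. Members of one family share promoter sequence by descent, and these shares describe letters only. Capitals mark AP-1 and TATAAA matches in Sprr1b (chr3:92438780-92439029, minus strand) and Sprr2b (chr3:92316455-92316704, plus strand) of GRCm38.p6.
Sprr1b: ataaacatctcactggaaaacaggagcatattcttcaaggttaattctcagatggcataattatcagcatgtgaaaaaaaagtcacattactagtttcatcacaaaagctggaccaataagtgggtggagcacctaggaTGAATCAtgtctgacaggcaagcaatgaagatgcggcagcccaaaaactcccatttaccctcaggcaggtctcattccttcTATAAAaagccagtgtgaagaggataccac
Sprr2b: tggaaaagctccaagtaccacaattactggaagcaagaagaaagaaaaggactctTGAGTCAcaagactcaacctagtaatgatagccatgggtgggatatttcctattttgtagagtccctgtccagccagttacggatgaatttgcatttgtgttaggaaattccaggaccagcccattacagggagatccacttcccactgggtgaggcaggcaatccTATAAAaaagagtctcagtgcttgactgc

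Genes of the cell contacts and lipids of the cornified layer were lower too. Of 26 genes for corneodesmosomes and epidermal proteases that passed, 16 were 2-fold lower and none was 2-fold higher, with a median of -1.19. Cdsn, for corneodesmosin, had 247 FPKM in +ND and 93.4 in +NFD. Among desmosomal cadherins, the suprabasal members Dsc1 (55.3 to 8.79 FPKM), Dsg1a (18.8 to 3.01) and Dsg1b (31.2 to 8.81) were 2-fold lower, while Dsg3 of the lower layers had a ratio of -0.17. Perp, another desmosomal gene, was at 1294 and 633 FPKM. The connexin genes Gjb2 (126 to 25.4 FPKM) and Gjb6 (15.02 to 2.53) were 2-fold lower, but their list was mixed. Of 8 connexin genes that passed, 3 were higher and 5 lower, with a median of -0.27, and only these 2 reached 2-fold. Of 31 skin lipid barrier genes that passed, 12 were 2-fold lower, among them Elovl4 (41.8 to 10.5 FPKM) and Alox12b (65.7 to 23.4). Cers4, which encodes a ceramide synthase, was the 1 member that was 2-fold higher, at 40.9 and 126 FPKM.

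Keratins of simple epithelia and some claudin genes went in the opposite direction. Krt18 had 9.90 FPKM in +ND and 63.2 in +NFD, and 76.7 in +N and 241 in +NF, and its partner Krt8 was at 0.574 and 5.95 with DBZ and at 22.8 and 86.0 without it. Both keratins were thus lowest in +ND and highest in +NF. Cldn10, a claudin of ion-permeable junctions, was listed at 0 in +ND and at 10.2 FPKM in +NFD, with 0.157 and 11.6 in +N and +NF, and Cldn6 was at 0.281 and 3.29 FPKM with DBZ. Of 27 cadherin, catenin and tight junction genes that passed, 20 were higher and 7 lower, with a median of 0.19 against 0.09 for all genes. Of these 27, 3 were 2-fold higher, against 3.39% of all genes, and none was 2-fold lower. Without DBZ the list had a median of -0.07. Cdh1, for E-cadherin, had a ratio of 0.13. Itgb4, a chain of the hemidesmosomal integrin, had 234 FPKM in +ND and 581 in +NFD, whereas its partner Itga6 had a ratio of 0.20. From a different list, that of Yap and Taz target genes, Nt5e, which encodes an ecto-nucleotidase, had 9.04 FPKM in +ND and 54.0 in +NFD. On that list 14 genes passed, 10 were higher, 4 were lower and only 1 reached 2-fold, with a median of 0.22.

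Collagen and matrix genes were higher in +NFD, and markers of mesenchymal cells moved with them. Of 23 collagen genes that passed 18 were higher and 8 were 2-fold higher, with a median of 0.76, and of 40 matrix glycoprotein and proteoglycan genes 31 were higher and 14 were 2-fold higher, with a median of 0.69. Col1a1 had 54.5 FPKM in +ND and 153 in +NFD, and 74.3 in +N and 50.3 in +NF. Col3a1 was at 12.3 and 56.7 FPKM with DBZ and at 20.8 and 6.81 without it. For both, +NFD held the highest of the 4 values. Mfap2, for a microfibril protein, was at 1.65 and 9.85 FPKM in +ND and +NFD, Lum, for lumican, at 9.45 and 28.6, and Mmp2 at 25.8 and 65.9. Without DBZ the collagen list had a median of -0.29.

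Beside these values, 13 of the 15 fibroblast markers listed passed the filter, all 13 were higher and 9 were 2-fold higher. Their summed level was 251 FPKM in +ND and 638 in +NFD, against 273 in +N and 232 in +NF. Thy1, a surface marker of fibroblasts and one of the leading genes, had 1.04 FPKM in +ND and 11.1 in +NFD. The 12 odontoblast and dental pulp markers summed to 154 FPKM in +ND and 318 in +NFD, with Dmp1 at 9.27 and 28.0, while Dspp, a defining odontoblast gene, was at 0 and 0.0162 FPKM, under the value of 3 fragments in either library. Of the 38 collagen genes listed, 3 are also on the fibroblast list. The 12 smooth muscle and pericyte markers summed to 50.4 and 68.0 FPKM, the 18 macrophage and leukocyte markers to 665 and 542, and the 12 endothelial markers to 1.42 and 1.73. The part of other cell types in the collagen and matrix values was not tested, and in bulk RNA more cells of a type cannot be told apart from more RNA per cell. Without the members of the fibroblast, collagen, matrix and odontoblast lists, a setting chosen after the values were seen, 421 genes were 2-fold higher in place of 450. This setting can remove only the listed genes, so it does not measure the part of other cell types.

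**Figure D4:**
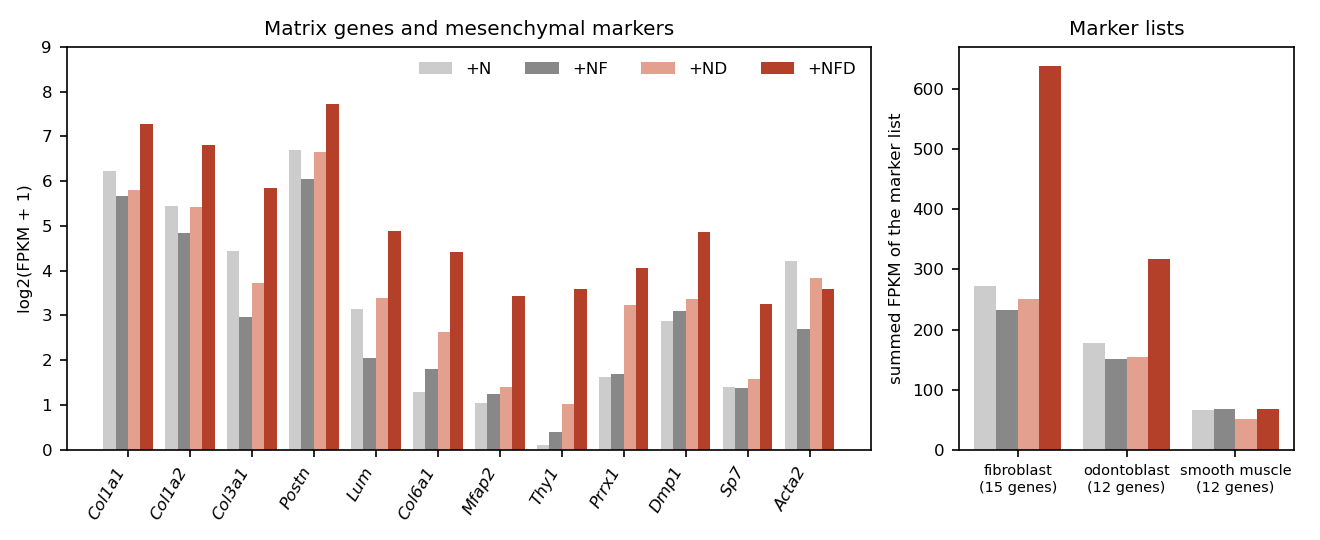
Left, levels of 12 matrix genes and mesenchymal markers as log2(FPKM + 1) in the 4 libraries; right, FPKM summed over 3 marker lists, 1 bar per library and with no error since each medium has 1 library. The fibroblast list sums to 638 FPKM in +NFD and to between 232 and 273 in the others.

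Other matrix genes and proteases differed in both directions. Vwde was at 0.00693 FPKM in +ND, under the value of 3 fragments, and at 4.504 in +NFD, and Matn4, for a matrilin, was at 0.243 and 4.81. Tgfbi was the 1 matrix gene that was 2-fold lower, at 80.6 and 25.3 FPKM. Among proteases and their inhibitors, Mmp9 (84.0 to 182 FPKM), Mmp11 (1.57 to 6.18), Timp1 (20.8 to 52.2) and Timp3 (22.2 to 48.8) were 2-fold higher and Mmp10 (49.1 to 19.9) was 2-fold lower. Clu, which encodes clusterin, was at 16.6 and 76.3 FPKM.

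Proliferation genes differed little on the DBZ background. Of 52 mitosis and G2/M genes, all of which passed, 28 were higher and 24 lower, none reached 2-fold, and the median was 0.02. Their summed level was 1638 FPKM in +ND and 1640.4 in +NFD. Mki67 was at 15.8 and 18.0 FPKM and Top2a at 60.01 and 60.94. Of 42 DNA replication and G1/S genes 32 were higher, none reached 2-fold, and the median was 0.28. Without DBZ all 52 mitosis genes were higher in +NF than in +N, 19 of them 2-fold against 2.76% of all genes, with a median of 0.96 and summed levels of 997 and 1830 FPKM. The +N library was the lowest of the 4 for this sum. Ccnd2, for a D cyclin, was at 158 and 315 FPKM with DBZ, a ratio of 0.99, and Cdkn2a, a cell cycle inhibitor gene, was at 16.2 and 45.9.

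Cytokine genes were divided. Tslp, an epithelial cytokine, had 67.4 FPKM in +ND and 6.81 in +NFD, and 2.37 in +N and 2.03 in +NF, with a ratio of -3.13 on the DBZ background. The interleukin-1 family genes Il1f6 (62.6 to 20.0 FPKM) and Il1f9 (249 to 91.0) and the chemokine gene Ccl20 (10.6 to 2.74) were 2-fold lower. In the other direction Il34, a ligand of the macrophage receptor Csf1r, was at 7.10 and 44.9 FPKM, Cx3cl1 at 15.96 and 49.96, and Cxcl3 at 142 and 307. Of 26 such genes that passed 9 were 2-fold lower and 3 were 2-fold higher. The defensin genes Defb1 (71.8 to 20.0 FPKM), Defb4 (24.9 to 5.02) and Defb14 (149 to 34.7) were 2-fold lower, whereas Defb6 (0.729 to 3.57) was 2-fold higher and Defb3 (51.97 to 49.98) was under 2-fold. Also 2-fold lower were S100a8 (28.9 to 4.52) and S100a9 (141 to 49.3), which encode the calprotectin subunits. Their list was mixed: of 12 S100 genes that passed, 4 were higher and 8 lower, with a median of -0.29. Of these 12, 1 was 2-fold higher and 3 were 2-fold lower. The S100 list summed to 10544 FPKM in +ND and 11340 in +NFD. Of 30 interferon response genes 25 were lower and 4 were 2-fold lower, with Xaf1 at 6.90 FPKM in +ND and 1.52 in +NFD, and at 48.0 in +N and 39.8 in +NF.

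Several lists of general cell functions held no 2-fold gene in either direction: 41 ribosomal protein genes with a median of 0.01, 41 nuclear oxidative phosphorylation genes with 0.03, 32 glycolysis and hypoxia genes with 0.16 and 27 endoplasmic reticulum folding genes with 0.19. The signs of the medians at 0.01 and 0.03, and of the 0.02 for mitosis genes, changed with the scaling. Not all metabolic lists were so: of 23 sterol synthesis genes 16 were lower and 1 was 2-fold lower, with a median of -0.21. Among 17 fatty acid synthesis genes that passed, 2 were 2-fold higher and none was 2-fold lower. These were the desaturase genes Fads1 (21.2 to 62.4 FPKM) and Fads3 (18.9 to 43.6), and their neighbour Fads2 on chromosome 19 (50.0 to 100.1) had a ratio of 0.99. Without DBZ the ratios of Fads1, Fads3 and Fads2 were 2.34, 1.52 and 1.76. Glutathione transferase genes went both ways, with Gsta1 at 153 and 40.0 FPKM and Gsta3 at 342 and 635.

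The same addition of FGF10 without DBZ, +NF against +N, shares no library with +NFD against +ND. There, 361 genes were 2-fold higher, or 2.76%, and 319 were lower, or 2.44%. Genes higher in both backgrounds numbered 109, which is 24.2% of the higher genes with DBZ and 30.2% of those without. Genes lower in both numbered 117, which is 28.3% and 36.7%. Across the 12635 genes tested in both backgrounds, which are not independent replicates, Pearson's r between the ratios was 0.39 and Spearman's rho was 0.16, and 55.2% of genes had the same sign. Most tested genes were higher in each background, 59.0% with DBZ and 65.7% without. Unrelated ratios would therefore also share a sign in a majority of genes. Spry1, Cyp26a1, Cyp26c1, Cldn10, Bpifb4, Fads1 and Fads3 were among those higher in both, while Amelx, Ambn, Enam, Igfbpl1 and Ascl5 were 2-fold higher in +NFD over +ND but not in +NF over +N. In +N and +NF, Krt1 held about 25.8 and 1.11 estimated fragments and Stfa2 about 5.45 and 0. Whether any gene's ratio differed between the backgrounds was not tested.

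**Figure D5:**
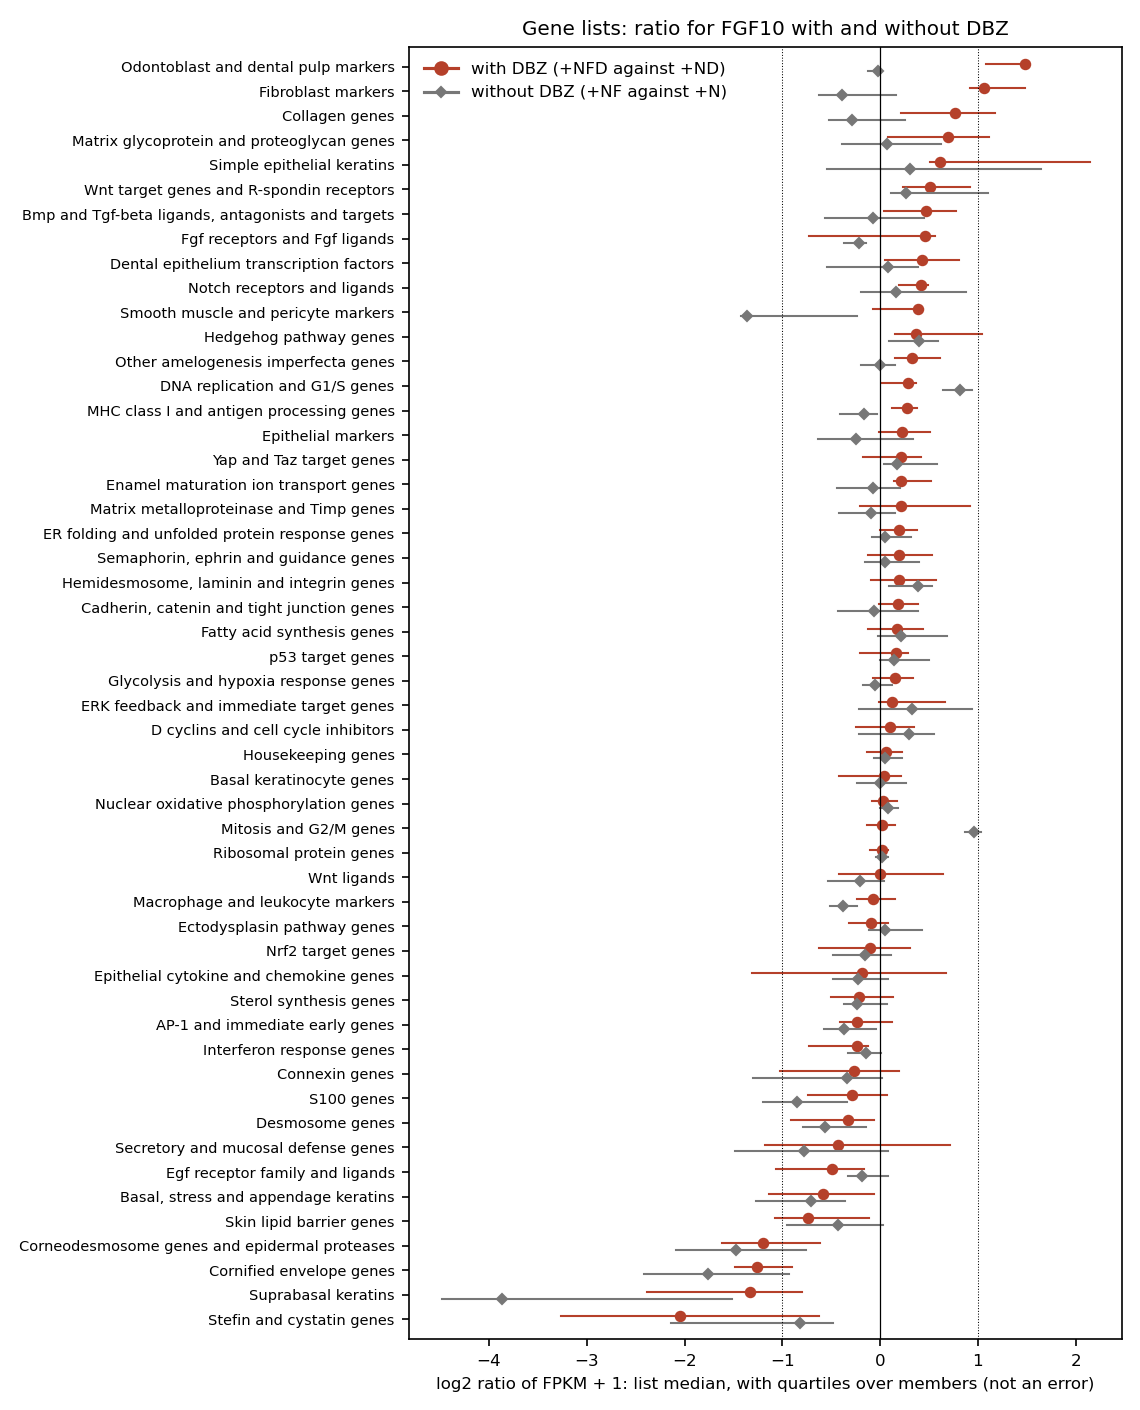
Median log2 ratio of FPKM + 1 for each gene list with at least 5 members that passed in both comparisons, for +NFD against +ND (circles) and +NF against +N (diamonds); horizontal lines are quartiles over the members and are not an error. Cornified envelope, corneodesmosome, suprabasal keratin and stefin lists lie left of 0 in both, mitosis genes lie at 0.02 with DBZ and 0.96 without, and fibroblast markers at 1.06 and -0.39.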

How the data were processed

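RNA of DEOs from the +N, +ND, +NF and +NFD media was sequenced as 1 library per medium. The authors checked reads with FastQC (v0.11.9), trimmed them with Trim Galore (v0.6.5), aligned them to GRCm38 with TopHat2 (v2.1.1), estimated abundance with Cufflinks, and deposited FPKM values for each library, which are not counts. The strand setting and annotation release were not given in the sources used here. Entries with the same symbol were summed (123 symbols). Of 47360 symbols, 46910 matched GENCODE M21, which gave gene types and transcript lengths, and promoter sequences came from RefSeq. Ratios used a pseudocount of 1 and genes reaching 1 FPKM in either library of a pair. Since depth was not stated, the value of 1 fragment was estimated from steps between low FPKM values, and 3 fragments served as the floor for genes listed at 0. These limits cover counting error only. Calculations used Python (v3.11.15), numpy (v2.4.6), pandas (v2.3.3) and matplotlib (v3.10.9) and were tested on simulated data.

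Named genes were the 15 protein-coding genes with the largest ratio in each direction (5 FPKM or more in the higher library, longest transcript of at least 300 nt), members of the 56 lists, genes the study names for these media, and genes 2-fold apart in opposite directions in the 2 backgrounds. Others (Arhgap6, Prr9, Defb6 and the 2 lists on retinoid and peptide genes) were chosen after their values were seen. The comparison and all lists were chosen with earlier results of these data known. Alternatives were other pseudocounts, filters, scalings, gene types and ways of joining entries. The media with Jagged1 were not analysed here.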

Additional observations from a re-analysis of the deposited data

Results flagged for a closer look

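For 12 genes FGF10 went with at least a 2-fold difference in opposite directions in the 2 backgrounds, with 5 FPKM or more in the higher library of each comparison. Each background has 1 library with and 1 without FGF10, so the difference was not tested. The values below are the ratio with DBZ minus the ratio without it, on the log2 scale. The matrix or leukocyte-associated genes named here were higher with FGF10 in the presence of DBZ and lower in its absence: Col3a1 (3.5999), Lum (2.59) and Lsp1 (2.23). Lsp1 had 4.35 FPKM in +ND and 10.9 in +NFD, and 5.62 in +N and 2.13 in +NF, and the fibroblast marker sum was highest in +NFD too, at 638 FPKM; its part was not tested. The hormone gene Gnrh1 had a difference of 4.34. Hmga2, for a chromatin protein of growing cells, was at 5.11, 43.9, 19.8 and 17.9 FPKM in the order +N, +ND, +NF and +NFD, a difference of -3.01. Ptgs2, for the prostaglandin enzyme COX-2, was at 2.17, 15.7, 7.31 and 6.60 FPKM in that order, a difference of -2.52. For both, +ND was the highest library.

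The other 6 are noncoding RNAs or a pseudogene: Rmrp (2.99), Snhg9 (-4.77), Snora15 (-6.80), Snora21 (9.84), Gm22513 (3.99) and Gm3788 (-5.72). Snora21 was at 41.9 FPKM in +N, 20.3 in +NFD and listed at 0 in +ND and +NF, and Snora15 was at 138 FPKM in +ND and listed at 0 in +N. Small nucleolar RNAs are short, and 9.11% of the higher and 8.94% of the lower calls with DBZ were under 300 nt.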

How the results depend on the processing

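No paired analysis was possible because each medium has 1 library, so that no error between cultures could be estimated. With a pseudocount of 0.1, 818 genes were 2-fold higher in +NFD than in +ND, 712 were higher in +NF than in +N, and 480 were lower in +NF. With no pseudocount, over genes above 0 in both libraries, the higher counts were 829 with DBZ and 720 without it. With a filter at an FPKM of 5, 290.0 genes were higher in +NFD. The count of genes lower in +NFD stayed within 1.5 times 414 throughout, between 311 and 583. The median ratio over all genes, 0.09, was 0.0397 with no filter on low values, 0.0278 with upper-quartile scaling and, by construction, 0 when centred. Of 447 list medians under the 8 alternatives, 440 kept their side of the 2-fold limit and none of those past it changed sign. Enamel matrix, suprabasal keratin and odontoblast medians were under 2-fold with no filter, the fibroblast median was under it with both scalings, and the simple keratin median passed it with no pseudocount and at a filter of 5. All 314 values of 41 genes, which are the 15 with the largest ratio in each direction and the 12 with opposite ratios in the 2 backgrounds (Gnrh1 is in both sets), kept their direction and their side of the limit. These genes were picked for large ratios in the same data, so this outcome was largely set beforehand. With no pseudocount, genes listed at 0 in a library have no value and were not checked. Low FPKM values rest on few fragments, and 58 of the genes called higher were listed at 0 in +ND.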

Other observations

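Of 41 semaphorin, ephrin and guidance genes 37 passed the filter, and 21 of them were higher in +NFD, close to the 59.0% of all genes. Efnb2 (3.52 to 8.41 FPKM) and Slit3 (1.15 to 3.49) were 2-fold higher, and Sema3c (23.5 to 10.2) and Slit1 (5.19 to 1.72) were 2-fold lower. Of 15 genes of antigen presentation by MHC class I that passed, 12 were higher, none reached 2-fold, and the median was 0.28.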
